A study of Mus musculus with 6 samples.

Results

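The genes described here are the VEGF and angiopoietin signalling genes, 10 of the 32285 genes measured. They were taken by symbol, with no measured value in the rule, and are the ligands Vegfa, Vegfb, Vegfc, Angpt1 and Angpt2 and the receptors Kdr, Flt1, Flt4, Tek and Tie1. The set was chosen with earlier results of these data known. All 10 were found in the gene list. The source tissue was the Cardiogenic region, dissected from C57BL/6 mouse embryos of wild type genotype at E10.5, and RNA of single cells was counted with a droplet kit that reads 3′ ends. The labels describe 6 samples. In 3 of them the mothers had been pretreated with vehicle (Veh) and had normal blood glucose, and in the other 3 they had been pretreated with streptozotocin (STZ, which kills the insulin-secreting cells of the pancreas) and were hyperglycemic. Fathers had normal glucose in both groups. The labels also name non-cardiac mesoderm, ectoderm and endoderm as present.

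VEGF ligands are secreted growth factors that drive the growth and patterning of blood and lymphatic vessels through receptor tyrosine kinases on endothelial cells. Vegfa signals mainly through Kdr (VEGFR2), Flt1 (VEGFR1) binds Vegfa and Vegfb tightly and limits the ligand that reaches Kdr, and Vegfc signals through Flt4 (VEGFR3), a receptor known for its role in lymphatic vessels. Angpt1 activates the receptor Tek (Tie2) and stabilises vessels, Angpt2 can block or weakly activate it, and Tie1 is a related receptor that modulates Tek. In the embryonic heart, Angpt1 from heart muscle acting on Tek of the endocardium is known to be needed for trabecula formation, and Vegfa signalling for the endocardial cushions and coronary vessels.

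The 6 barcode suffixes of the pooled matrix separate 6 libraries, but no file used here ties a suffix to a sample. Streptozotocin could therefore not be compared with vehicle, no test was run, and each level is given by library number, without a group. Barcodes with at least 2500 genes and at most 10% mitochondrial UMIs (unique molecular identifiers, which count each captured RNA molecule once) were retained, 35962 of 53362. The libraries held 4903 to 7136 retained cells, with median depths of 30533 to 35634 UMIs per cell. Levels are in CPM, the count of a gene scaled to a total of 1000000 UMIs. Xist, the RNA that silences 1 X chromosome in female cells, was at 383 CPM in library 1 and at most 0.342 in libraries 2 to 6. Of the retained cells, 2890 had a barcode sequence that also occurs in another library, counting all 53362 barcodes, and 141 sequences were retained in more than 1 library.

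Cells were assigned to a class by a gate, a minimum number of marker genes with at least 2 UMIs each. None of the 10 genes is a marker. A class is named after its marker list with the ending "-like" (epicardium-like stands for epicardium and other mesothelium, second heart field-like for second heart field and pharyngeal mesoderm), and 18289 cells (50.9%) fell in exactly 1 gate. A further 16471 (45.8%) met no gate and 1202 (3.34%) met 2 or more, and both were kept out of the classes. The 1981 endothelial-like cells were gated by at least 5 of Pecam1, Cdh5, Esam, Cldn5, Egfl7, Emcn, Ecscr and Icam2. In each of the 16 classes with 50 or more cells, 2 to 5 markers of its own were among the 10 genes with the largest fold over other cells. The gates select for these markers, so this describes the gates and does not test the classes. Most second heart field-like (851 of 1086) and branchiomeric muscle-like cells (445 of 549) had just the minimum number of markers. So did most smooth muscle-like (250 of 358), surface ectoderm-like (786 of 1192), paraxial mesoderm-like (248 of 407) and endoderm-like cells (1214 of 2328). A level is the CPM of the summed UMIs of a class, its 95% interval (exact Poisson, or for ratios the matching exact interval) covers counting error only, and values by library are given for libraries with at least 20 cells of the class. A 3′ kit gives 1 tag per molecule whatever the transcript's length, so CPM of different genes can be set side by side, with the limit that capture may differ between genes.

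Ligands and receptors had different highest classes. All 5 receptors had their highest level in endothelial-like cells and none of the 5 ligands did, where 5.89% of the 12069 genes that reached 10 CPM in any class were highest in that class. Vegfb and Angpt1 were highest in cardiomyocyte-like cells (7.81% of all genes), and Vegfa in endoderm-like cells (4.0%). Angpt2 was listed highest in smooth muscle-like cells (3.04%), but this class was not separated from endoderm-like cells, and the highest classes of Vegfc could not be told apart. All 10 genes reached 10 CPM in their highest class.

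**Figure D1:**
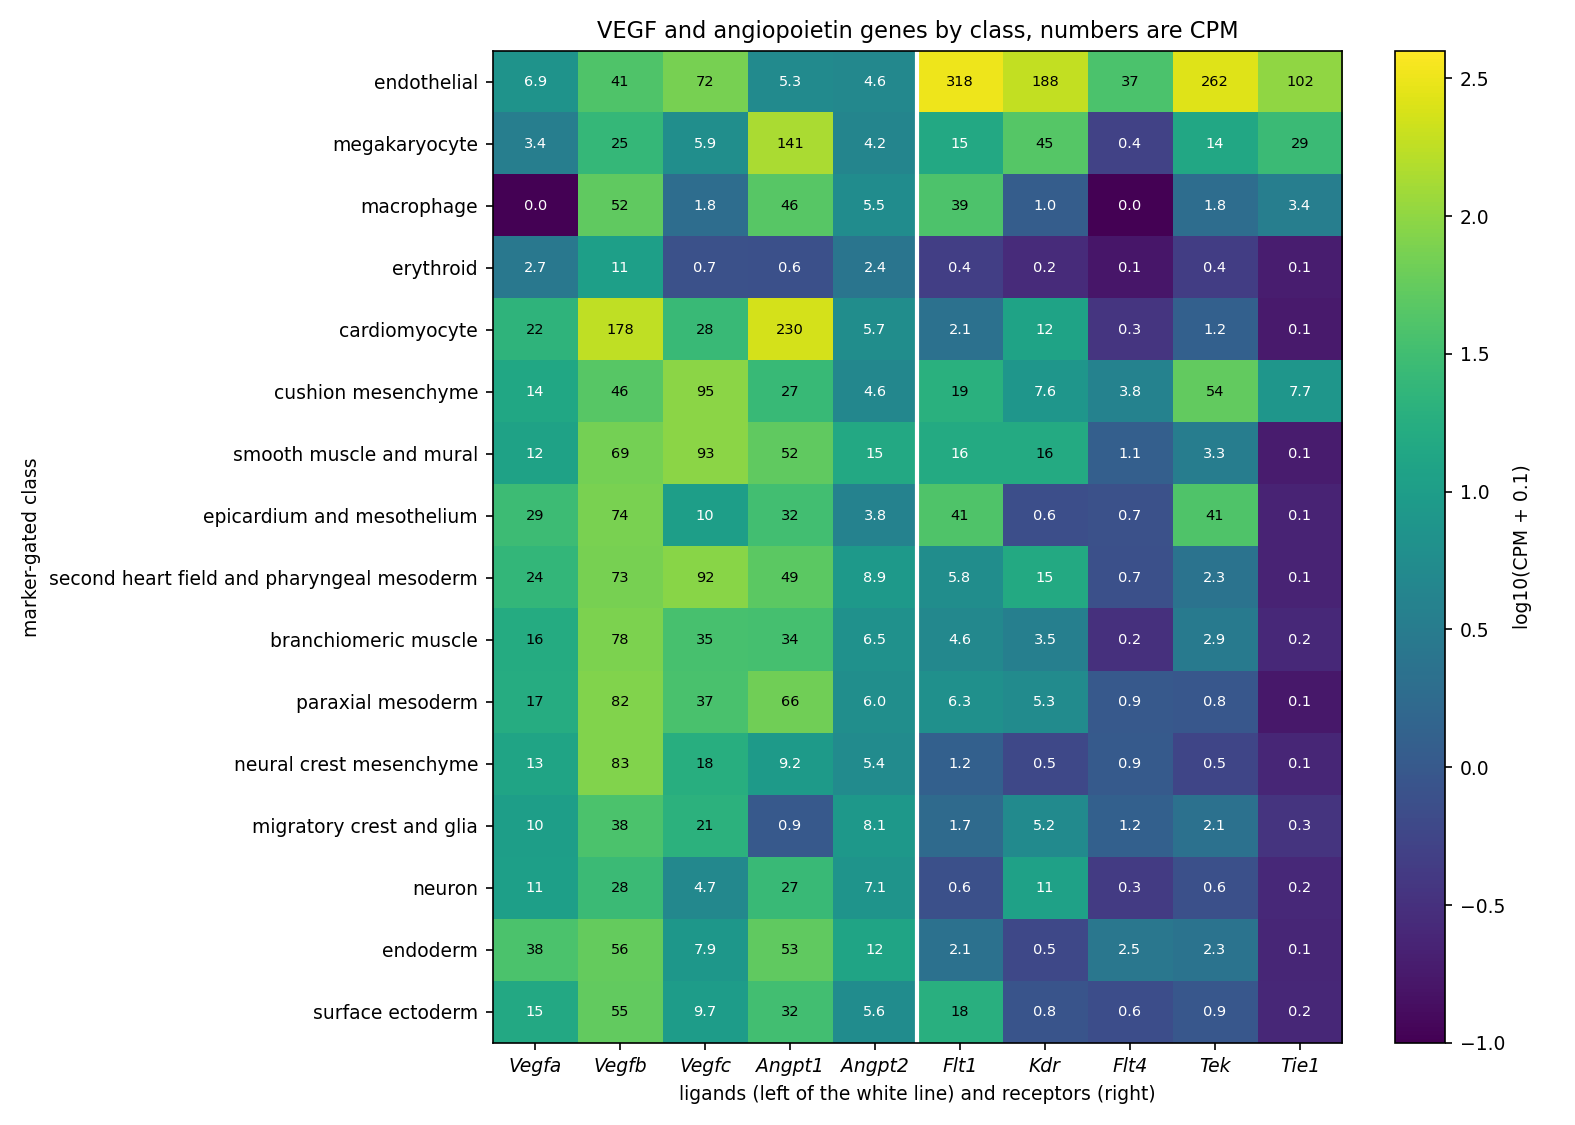
Level of each gene (columns, ligands left and receptors right of the white line) in each of the 16 classes (rows), as log10(CPM + 0.1) in colour, with the CPM written in each field. The receptor columns are brightest in the endothelial row, from 37.4 CPM for Flt4 to 318 CPM for Flt1, while the brightest ligand fields are Angpt1 and Vegfb in the cardiomyocyte row.

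Vegfa, the main ligand of Kdr, had UMIs in every class but the macrophage-like one, and was low in endothelial-like cells, where its receptors were highest. Some classes with more Vegfa also held receptor RNA. Flt1 was at 41 CPM in epicardium-like cells and Kdr at 15.1 CPM in second heart field-like cells. Vegfa is encoded on chromosome 17, 46016993 to 46032369 (GRCm38, minus strand, GENCODE). Endoderm-like cells held 37.5 CPM (36.2 to 38.9), with 36, 39.6, 34.5, 34.1, 34.3 and 44.9 CPM in libraries 1 to 6. Epicardium-like cells were next at 28.8 CPM, with 30.2, 32.4, 29.1, 27.2, 21.5 and 27.8 CPM. The endoderm-like level was higher by a ratio of 1.3 (95% interval 1.23 to 1.38), in 6 of 6 libraries, although the ranges 34.1 to 44.9 and 21.5 to 32.4 CPM come close to each other. It was 1.07 where each gate needed 1 more marker. Second heart field-like cells (24.3 CPM) and cardiomyocyte-like cells (22.2 CPM, range over libraries 20.2 to 23.9) followed. Endothelial-like cells had 6.92 CPM (4.68 to 7.55 over libraries), below every library of those 4 classes. Erythroid-like cells (embryonic red blood cells) had 2.69 CPM, and the 56 macrophage-like cells had no Vegfa UMI, which allows up to 0.787 CPM (3 counts). At least 1 Vegfa UMI was found in 54.9% of endoderm-like cells at a median depth of 31338 UMIs and in 15.5% of erythroid-like cells at 64600, and after thinning each cell to 5000 UMIs in 16.7% and 1.06%.

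Vegfb, a ligand of Flt1 linked to heart muscle and fatty acid use, had a single high class above a broad level. Cardiomyocyte-like cells held 178 CPM (175 to 179.8), with 189, 182, 200.2, 162, 162 and 168 CPM in libraries 1 to 6. Crest mesenchyme-like cells were next at 83 CPM (77.4 to 88.6 over libraries), so that the libraries of these classes do not overlap, and the ratio was 2.14 (95% interval 2.1 to 2.18). Paraxial mesoderm-like (82 CPM), branchiomeric muscle-like (78.4 CPM), epicardium-like (74.1 CPM), second heart field-like (72.5 CPM) and smooth muscle-like cells (69.3 CPM) lay close together, and the crest and paraxial levels differed by less than their counting error. Endothelial-like cells were at 41.1 CPM and erythroid-like cells at 10.8 CPM. Cardiomyocyte-like cells made up 8.02% of retained cells and held 23.8% of all Vegfb UMIs. Vegfb lies on chromosome 19, 6982473 to 6987651 (minus strand).

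Vegfc, the ligand of Flt4, had 3 mesenchymal or mesodermal classes at one level and endothelial-like cells just below. Cushion mesenchyme-like cells, smooth muscle-like cells and second heart field-like cells were at 95, 93.5 and 91.7 CPM, and their order could not be told apart. The ratio of the first to the second was 1.02 (95% interval 0.934 to 1.11), with the cushion class higher in 3 of 6 libraries, and it was 0.828 when cells were thinned to 5000 UMIs. By library the cushion class had 90.9, 84.4, 93.2, 108, 84.2 and 124 CPM. The second heart field class had 67.2, 48.3, 113, 91.4, 95 and 104 CPM, lowest in libraries 1 and 2. Endothelial-like cells followed at 72.3 CPM, with 74.8, 73.7, 51.9, 65.7, 67.6 and 88.7 CPM, overlapping the second heart field class, and at a ratio of 1.97 (95% interval 1.8 to 2.15) over the next class, paraxial mesoderm-like cells. Of the 5 ligands, Vegfc had the highest level in the class that holds the receptors, ahead of Vegfb at 41.1 CPM. Endoderm-like cells, highest for Vegfa, had 7.89 CPM of Vegfc, and erythroid-like cells 0.689 CPM. Cells that met no gate held 47.3% of all Vegfc UMIs at 49.4 CPM, and 34.2% of the UMIs of all genes. Of the other 4 ligands they held 34 to 40.3%, so that much of the ligands' RNA lies outside the classes named here. Vegfc lies on chromosome 8, 54077606 to 54187096 (plus strand).

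Angpt1, the activating ligand of Tek, was the ligand with the highest level in any class. Cardiomyocyte-like cells held 230.2 CPM (228 to 233), with 227, 264, 217, 215, 214 and 231 CPM in libraries 1 to 6. The next class was the 52 megakaryocyte-like cells at 141 CPM (126 to 156), a ratio of 1.64 (95% interval 1.47 to 1.83), where no library had 20 cells, so this order could not be checked by library. Paraxial mesoderm-like cells had 66 CPM and differed widely between libraries. Endoderm-like cells (53.2 CPM, 42 to 70.2 over libraries), smooth muscle-like cells (51.9 CPM, 22.3 to 67) and second heart field-like cells (49 CPM, 39.2 to 76.6) lay below every cardiomyocyte-like library and overlapped one another. Endothelial-like cells, which carry Tek, had 5.26 CPM, with 4.64, 5.5, 5.23, 3.4, 5.27 and 7.46 CPM. Cardiomyocyte-like cells held 39.2% of all Angpt1 UMIs, and at least 1 UMI was found in 74.4% of them against 10.05% of endothelial-like and 2.26% of erythroid-like cells, at median depths of 43816, 39062 and 64600 UMIs. Thinned to 5000 UMIs, the shares were 43.1%, 1.77% and 0.141%. Angpt1 lies on chromosome 15, 42424723 to 42676977 (minus strand), where Gm17473 overlaps it on the opposite strand. The sources used here do not say whether counting used strand, and without it reads of the 2 genes cannot be told apart.

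In 2 classes Angpt1 separated the libraries. Paraxial mesoderm-like cells had 4.51, 64.3, 7.08, 65.9, 84.7 and 96.8 CPM in libraries 1 to 6, low in libraries 1 and 3. Every paraxial cell of libraries 1 and 3 had at least 2 UMIs of Pax3, a gene of the outer somite that gives rise to muscle and dermis, against 71.9%, 73.9%, 49.7% and 69% in libraries 2, 4, 5 and 6. Angpt1 was at 11.9 CPM in the 266 cells with Pax3 and at 196 CPM in the 141 without, and at 193 CPM in the 108 cells with Pax1, a gene of the inner somite (sclerotome). Library 5 gave 95 of the 141 and 79 of the 108 cells, and no other library reached 20. Within library 5 the level was 12.6 CPM with Pax3 and 165 CPM without. For Meox2, libraries 2, 4, 5 and 6 had at least 20 cells of each kind. There Angpt1 was at 143, 109, 121 and 176 CPM with Meox2 and at 5.72, 19.4, 19.1 and 39 CPM without. Over all libraries it was at 51.5 CPM with Tcf15 and 263 CPM without, and at 120 against 52.7 CPM for Uncx. These genes are markers of the gate, and 248 of 407 cells had just its minimum number. Their splits are thus not independent results. Among the cells with Pax3 the libraries ranged from 4.51 to 27.1 CPM, a narrower range than over the whole class. In epicardium-like cells Angpt1 was at 21.5, 12, 17.8, 32.2, 78.9 and 70.5 CPM, highest in libraries 5 and 6. There it was higher in the 208 cells with at least 2 UMIs of Wnt2 (90.3 CPM) than in the other 965 (19.98 CPM), in 6 of 6 libraries, and both kinds of cell were highest in libraries 5 and 6. What sets these libraries apart was not tested.

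Angpt2, the context-dependent ligand of Tek, was low throughout. Its highest level was 14.8 CPM (12.7 to 17.2) in smooth muscle-like cells, with 18.2, 13.4, 22.9, 6.88, 13.6 and 17.1 CPM in libraries 1 to 6. Endoderm-like cells had 12.4 CPM, with 13.2, 16.3, 13.8, 9.2, 7.84 and 14.9 CPM. The smooth muscle-like value was the higher one in 4 of 6 libraries and the libraries overlapped, so these 2 classes were not separated. Their ratio was 1.2 (95% interval 1.02 to 1.41), and 1.81 where each gate needed 1 more marker. Second heart field-like cells followed at 8.89 CPM. Endothelial-like cells, the class in which Angpt2 is best known in growing vessels, had 4.62 CPM (3.56 to 6.47 over libraries), close to crest mesenchyme-like cells at 5.37 CPM and above erythroid-like cells at 2.41 CPM. An Angpt2 UMI was found in 16.9% of endothelial-like and 14.3% of erythroid-like cells, at 39062 and 64600 median UMIs, and in 2.68% and 1.69% at 5000 UMIs. Angpt2 lies on chromosome 8, 18690263 to 18741562 (minus strand) and overlaps Mcph1, with the same limit, since it runs on the opposite strand.

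**Figure D2:**
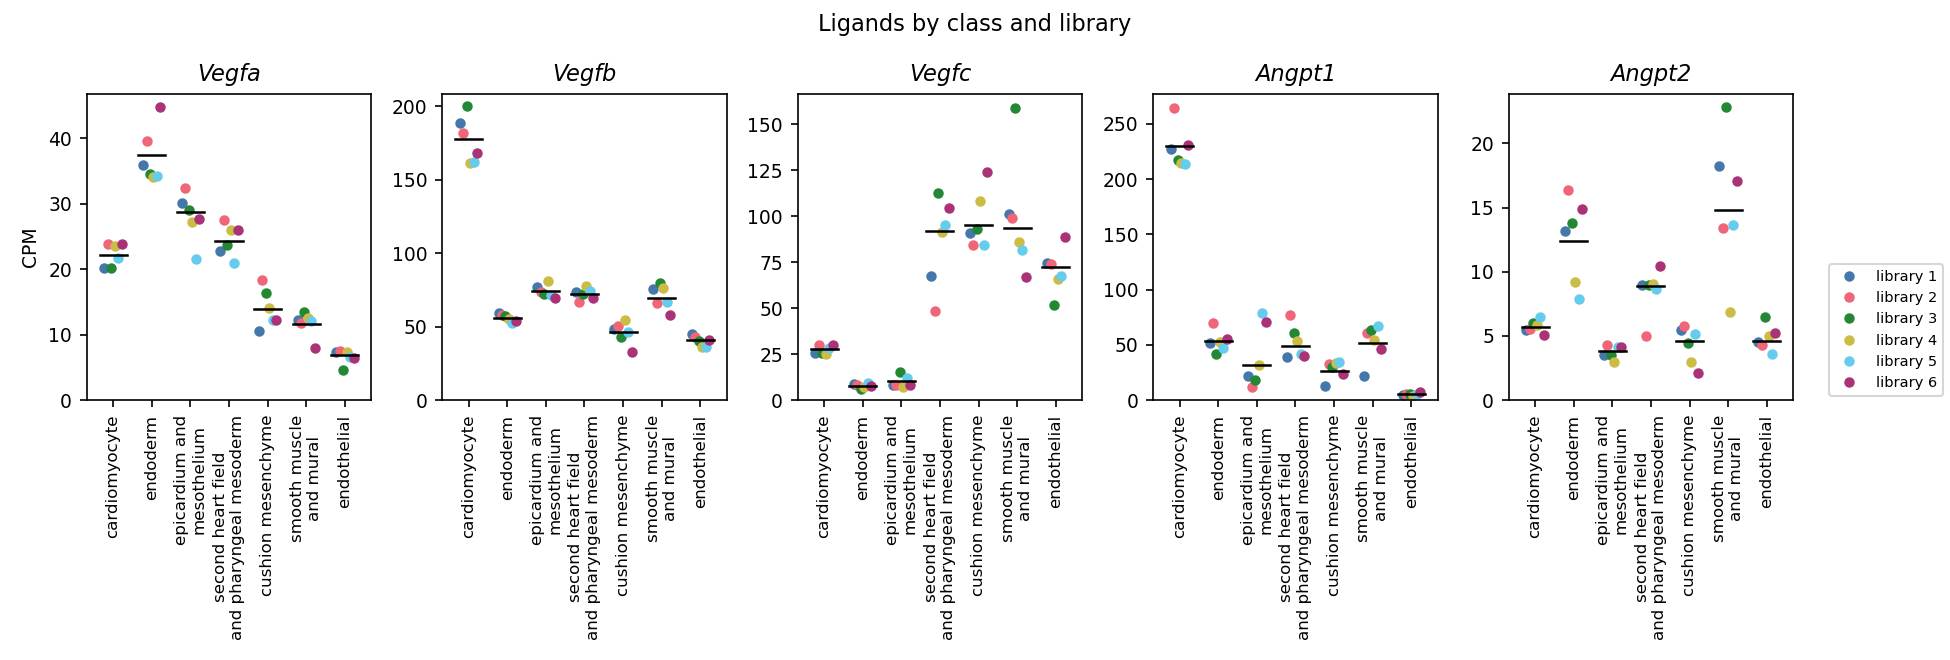
CPM of the 5 ligands in 7 classes, with 1 point for each library and a bar for the level of the summed class. Vegfb and Angpt1 stand highest in cardiomyocyte-like cells in all 6 libraries, Vegfa in endoderm-like cells, and the 3 highest classes of Vegfc overlap.

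The receptors were concentrated in endothelial-like cells. With 5.51% of the retained cells, this class held 89.1% of all Tie1 UMIs, 74.8% of Tek, 71.7% of Flt4, 70.8% of Flt1 and 64.2% of Kdr. Levels within the class varied with the number of endothelial markers per cell. Between cells with 5 and with 8 markers, Kdr went from 81.4 to 261 CPM and Flt1 from 209 to 415 CPM. Flt4 went from 13.8 to 58.2 CPM and Tie1 from 62.2 to 120 CPM, while Tek went from 285 to 227 CPM. Of the 9 members that reached 10 CPM in either group, Vegfc and the 5 receptors were at least 2-fold higher in endothelial-like cells than in all other retained cells, against 9.83% of 9417 genes, and Vegfa and Angpt1 were at least 2-fold lower, against 9.48%. A gene that is low elsewhere passed that minimum only through its high group, so these counts are a description.

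Flt1, the receptor that traps Vegfa, had 318 CPM in endothelial-like cells (315 to 322), with 297, 327, 309, 319, 323 and 342 CPM in libraries 1 to 6. Epicardium-like cells were next at 41 CPM, with 42.9, 49.9, 35.7, 35.2, 35.8 and 40.2 CPM, a ratio of 7.76 (95% interval 7.45 to 8.09) and no overlap of libraries. The 56 macrophage-like cells had 39.3 CPM (33.3 to 46.2), within counting error of the epicardium. Cushion mesenchyme-like (19.4 CPM), surface ectoderm-like (18.3 CPM) and smooth muscle-like cells (15.6 CPM) followed. Flt1 lies on chromosome 5, 147561604 to 147726011 (minus strand). A Flt1 UMI was found in 97.3% of endothelial-like cells and 3.64% of crest mesenchyme-like cells, whose median depths were 39062 and 43964 UMIs, and in 69.3% and 0.38% at 5000 UMIs.

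Kdr, the main signalling receptor of Vegfa, had 188 CPM in endothelial-like cells (185 to 191), with 168, 183, 191, 199, 197 and 211 CPM by library. Megakaryocyte-like cells had 45.3 CPM (37.2 to 54.7, 52 cells), a ratio of 4.15 (95% interval 3.44 to 5.07). They also held a mean of 2.04 of the 8 endothelial markers per cell, against 6.98 in endothelial-like cells and 0.342 in crest mesenchyme-like cells, and the part of endothelial RNA in their Kdr and Tie1 was not tested. Low levels were found in several mesodermal classes, at 16 CPM in smooth muscle-like, 15.1 CPM in second heart field-like and 12.1 CPM in cardiomyocyte-like cells. The smooth muscle-like and second heart field-like levels did not differ beyond counting error, and neuron-like cells had 11.5 CPM. Endoderm-like (0.51 CPM), crest mesenchyme-like (0.502 CPM) and epicardium-like cells (0.626 CPM) had below 1 CPM, as did erythroid-like cells (0.18 CPM). Kdr lies on chromosome 5, 75932827 to 75978458 (minus strand).

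Flt4, the receptor of Vegfc, had the lowest endothelial-like level of the receptors, 37.4 CPM (36.1 to 38.7), with 29.1, 35.6, 39.4, 43.4, 42.6 and 42.5 CPM by library and the lowest value in library 1. Cushion mesenchyme-like cells were next at 3.82 CPM and endoderm-like cells followed at 2.55 CPM, both below every endothelial-like library. The ratio of the first to the second class was 9.81 (95% interval 7.29 to 13.5), and 5.997 with cells thinned to 5000 UMIs. A Flt4 UMI was found in 59.7% of endothelial-like cells at their full depth but in 13.9% at 5000 UMIs, so that absence of a UMI in a cell says little here. Flt4 lies on chromosome 11, 49609263 to 49652739 (plus strand).

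Tek, the receptor of the angiopoietins, had 262 CPM in endothelial-like cells (259 to 266), with 256, 271, 275, 239.8, 254 and 281 CPM by library. Cushion mesenchyme-like cells had 53.9 CPM, with 41.1, 45.3, 56.5, 69.6, 52.4 and 75.4 CPM, and epicardium-like cells 41 CPM, with 41.7, 45.2, 47.8, 32.4, 33 and 32.4 CPM. The endothelial-like level exceeded the cushion level by a ratio of 4.87 (95% interval 4.49 to 5.28) with no overlap of libraries, and the cushion level exceeded the epicardium level in 5 of 6 libraries. Tie1, which modulates Tek, had 102 CPM in endothelial-like cells (99.5 to 104), with 92.4, 106, 98.4, 102, 105 and 109 CPM by library. Megakaryocyte-like cells had 28.5 CPM of Tie1 (22.2 to 36.2) and cushion mesenchyme-like cells 7.72 CPM. Outside these classes and the macrophage-like cells (3.41 CPM), Tie1 was at most 0.252 CPM in any class, and its share of UMIs in endothelial-like cells was the highest of the 5 receptors. Tek lies on chromosome 4, 94739289 to 94874976 (plus strand) and Tie1 on chromosome 4, 118471191 to 118490061 (minus strand).

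**Figure D3:**
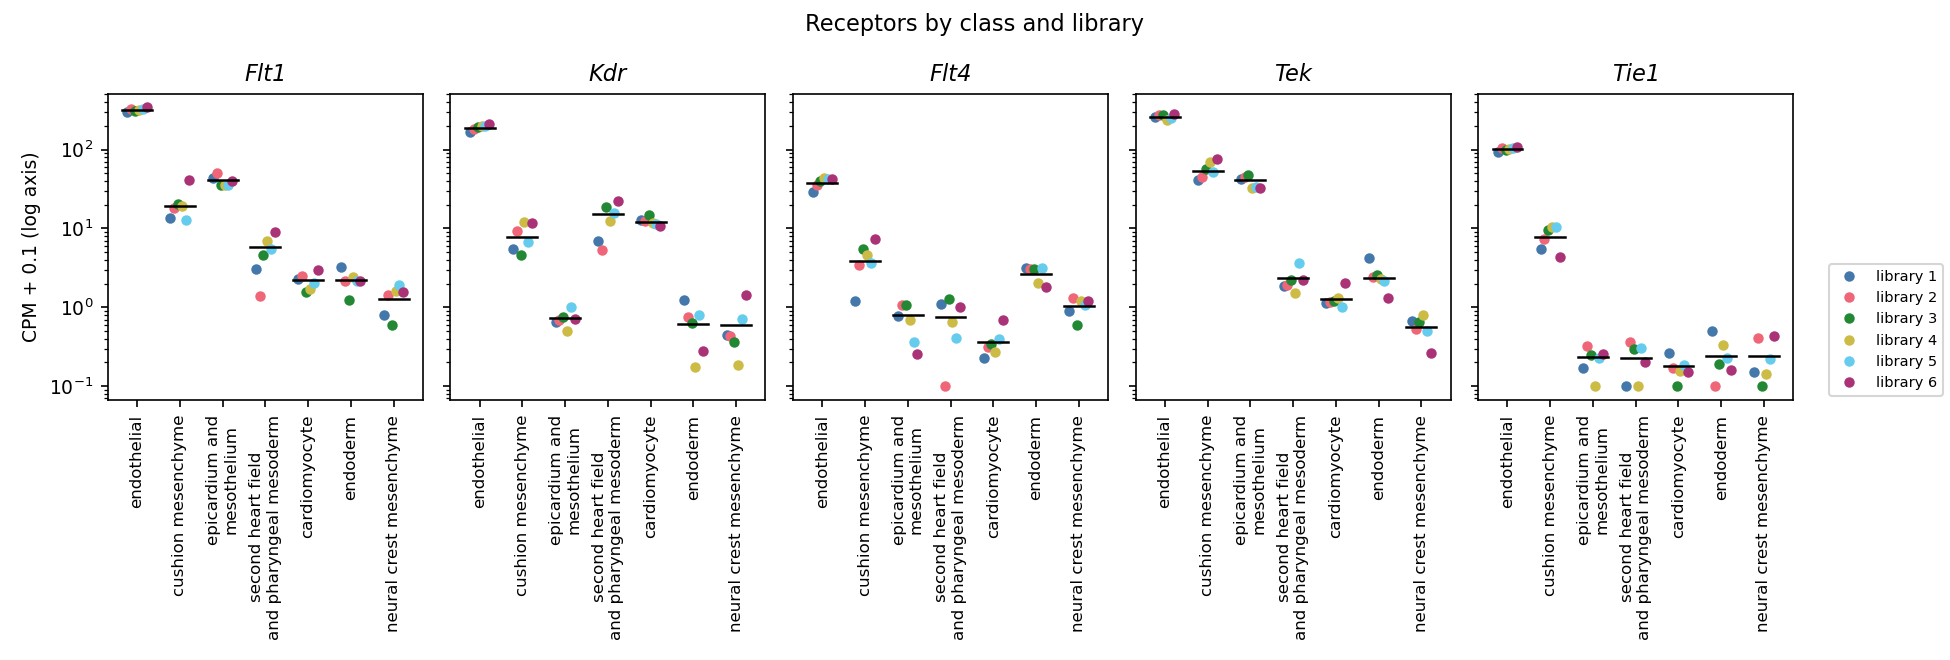
CPM + 0.1 of the 5 receptors on a log axis in 7 classes, with 1 point for each library and a bar for the level of the summed class. All 6 endothelial-like points of each receptor lie above every point of the other 6 classes drawn, and Flt1 and Tek, but not Kdr, Flt4 and Tie1, have a raised level in epicardium-like cells.

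The bases just upstream of Kdr, Flt1 and Tek are shown because these 3 receptors had the highest endothelial-like levels. Their sequences are from RefSeq's promoter table for GRCm38.p6, on the gene's strand and ending before both the RefSeq and the GENCODE start, and overlap no GENCODE exon. Capitals mark GGAA, the core letters bound by ETS transcription factors, a family known for activating endothelial genes, on either strand (TTCC on the strand shown).
Kdr upstream, chr5:75978459-75978705 (minus strand): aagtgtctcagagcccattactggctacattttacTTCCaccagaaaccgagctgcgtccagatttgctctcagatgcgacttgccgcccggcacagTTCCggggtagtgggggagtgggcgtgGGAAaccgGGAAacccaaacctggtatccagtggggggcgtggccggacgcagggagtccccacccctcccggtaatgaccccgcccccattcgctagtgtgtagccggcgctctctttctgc
Flt1 upstream, chr5:147726012-147726261 (minus strand): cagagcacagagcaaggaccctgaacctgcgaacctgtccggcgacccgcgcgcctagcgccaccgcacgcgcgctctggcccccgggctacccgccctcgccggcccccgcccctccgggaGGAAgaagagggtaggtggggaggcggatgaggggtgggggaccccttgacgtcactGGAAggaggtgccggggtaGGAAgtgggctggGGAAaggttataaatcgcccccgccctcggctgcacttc
Tek upstream, chr4:94739039-94739288 (plus strand): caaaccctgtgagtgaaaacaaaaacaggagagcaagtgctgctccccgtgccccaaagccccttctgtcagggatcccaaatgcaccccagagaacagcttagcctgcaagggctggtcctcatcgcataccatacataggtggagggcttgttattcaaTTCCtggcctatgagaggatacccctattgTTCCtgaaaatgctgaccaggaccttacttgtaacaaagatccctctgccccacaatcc

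Kdr held 4 matches in 247 bases, Flt1 4 in 250 and Tek 2 in 250. In the full windows of 300 bases (250 before to 50 after the RefSeq start), the counts were 5, 4 and 2, with 9 for Tie1 and 2 for Flt4. The RefSeq start lies 212 bases downstream of the GENCODE start for Tie1 and 416 bases for Flt4. Most of the Tie1 window and all of the Flt4 window thus lie inside the GENCODE gene. Of 32851 windows in the table, 96% hold at least 1 match and the median is 3, so matches to these 4 letters are common. At least as many matches as Kdr are held by 28.6% of windows, as Flt1 by 46.3%, and as Tek or Flt4 by 84.6%. For Tie1 the share is 1.59%. No window of the 8 members in the table held ACGTG, the core of the hypoxia response element, on either strand, against 19.6% of all windows. With 8 windows, this absence cannot be told apart from that background. The windows reach only from 250 bases before to 50 after the RefSeq start, so an element outside them would not be seen. Whether these genes have the element was thus not tested. The letters are a description of these windows, not binding sites.

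Tek and Flt1 in epicardium-like cells were set against the other endothelial genes. There Kdr was at 0.626 CPM and Tie1 at 0.132 CPM. Tek outnumbered Tie1 by 311 (95% interval 158 to 721) UMIs per UMI in epicardium-like cells and by 2.58 (95% interval 2.52 to 2.65) in endothelial-like cells. Flt1 outnumbered Kdr by 65.5 (95% interval 47.6 to 92.8) and by 1.69 (95% interval 1.66 to 1.73). The ratios between these genes thus differed between epicardium-like and endothelial-like cells. In the 88 epicardium-like cells with no UMI of the 8 endothelial markers, Kdr or Tie1, Tek was at 41.2 CPM (95% interval 34.6 to 48.7) and Flt1 at 29.5 CPM (23.9 to 35.9), against 41 and 41 CPM over all 1173 cells. Flt1 was thus lower in these 88 cells than over the class by more than counting error, and Tek was not. The part of endothelial RNA in the Tek and Flt1 of this class was not tested. Over the 6 libraries Tek lay between 32.4 and 47.8 CPM and Flt1 between 35.2 and 49.9 CPM, so both were present in every library. A Tek UMI was found in 70.9% of epicardium-like cells and in 1.67% of crest mesenchyme-like cells, and in 17.3% and 0.152% at 5000 UMIs.

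Cushion mesenchyme-like cells, which in the embryo arise from endocardium, held all 5 receptors above the levels of crest mesenchyme-like cells. Tek outnumbered Tie1 by 6.99 (95% interval 5.59 to 8.83) there, above the ratio in endothelial-like cells, and Flt1 outnumbered Kdr by 2.55 (95% interval 1.98 to 3.3). These cells were gated to have at most 2 of the 8 endothelial markers, Pecam1 among them, so the gates themselves shape ratios to Pecam1. Tek was at 1.46 (95% interval 1.29 to 1.65) UMIs per UMI of Pecam1, against 1.16 (95% interval 1.14 to 1.18) in endothelial-like cells. Flt1 went the other way, at 0.525 (95% interval 0.444 to 0.618) per UMI of Pecam1 against 1.41 (95% interval 1.38 to 1.43), and so did Kdr per UMI of Tie1, at 0.989 (95% interval 0.728 to 1.34) against 1.85 (95% interval 1.8 to 1.9). Endothelial markers are thus present in this class together with the receptors, at a mean of 1.25 markers per cell, and their part in the receptor levels was not tested. Only 5 of the 331 cells had no UMI of an endothelial marker, Kdr or Tie1, and these held no UMI of Tek or Flt1, which allows up to 25.7 CPM (exact 95% limit). Surface ectoderm-like cells had 18.3 CPM of Flt1 and below 1 CPM of each other receptor. Among the 555 cells with no UMI of an endothelial marker, Kdr or Tie1, Flt1 was at 11.2 CPM and Tek at 0.555 CPM.

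Receptors were found together in single endothelial-like cells. Of 1981 cells, 1016 (51.3%) had a UMI of all 5 receptors and 716 (36.1%) of 4, while 6 cells had none. Of crest mesenchyme-like cells 90.6% had none and no cell had 4 or 5. Epicardium-like cells mostly had 1 (39.6%) or 2 (40.4%), and megakaryocyte-like cells 2 (57.7%, 30 of 52).

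Within the endothelial gate, Flt4, Kdr, Flt1 and Tek differed between endocardial-like and other cells. The 1401 endocardial-like cells had at least 3 of Nfatc1, Npr3, Hapln1, Adgrg6 and Gata4, and were compared with the other 580 cells, of which 274 had 2 of these markers and 306 at most 1. Flt4 was at 25.1 CPM in endocardial-like and 71.1 CPM in the other cells, with 20.9, 25.7, 27.5, 20.5, 26.3 and 32.7 CPM against 68.1, 66.6, 75.9, 78.8, 70.8 and 69.96 CPM in libraries 1 to 6. The libraries do not overlap, and the ratio was 0.353 (95% interval 0.329 to 0.378). Flt4 was the only one of the 7 members with 10 CPM in either group that was at least 2-fold apart, where 2.82% of 8760 genes were at least 2-fold lower and 4.95% higher in endocardial-like cells.

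Kdr was at 162 CPM in endocardial-like cells, with 152, 151, 163, 155, 168 and 196 CPM by library. In the other endothelial-like cells it was at 259.8 CPM, with 241, 284, 275, 265, 248 and 252 CPM. Flt1 was at 281 CPM (259 to 319.6 over libraries) against 422 CPM (367 to 472). All 3 VEGF receptors were thus lower in endocardial-like cells in 6 of 6 libraries, with no overlap. Tek had the opposite order, at 295 CPM, with 276, 294, 311, 276, 303 and 325 CPM by library, against 175 CPM, with 159, 199, 165, 183, 171 and 158 CPM. Its ratio was 1.69 (95% interval 1.63 to 1.75), again without overlap. Tie1 was at 102 and 100.2 CPM, a ratio of 1.02 (95% interval 0.972 to 1.07), and its libraries overlapped. The 274 cells with 2 endocardial markers, which are part of the 580, had 65.8 CPM of Flt4, 266 of Kdr, 485 of Flt1 and 194 of Tek.

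Among the ligands, Vegfb was higher in endocardial-like cells in 6 of 6 libraries (44.5 against 31.6 CPM). Vegfc was higher in 5 of 6 (75.9 against 62.2 CPM), with a low value of 19.7 CPM in the other cells of library 3. Angpt2 was lower in 6 of 6, at 4.14 against 5.93 CPM. From the lists of related genes, Nrp2, a co-receptor of Vegfc, was at 40.4 against 151 CPM, Aplnr, the apelin receptor, at 16.9 against 106 CPM, and Ptprb, the phosphatase that restrains Tek, at 141 against 123 CPM, the first 2 lower and the last higher in 6 of 6 libraries. Of the cells with at most 1 endocardial marker, 148 were arterial-like and 96 venous-like, and libraries 4 and 5 had at least 20 of each. Venous-like cells had at least 2 of the venous and lymphatic genes Nr2f2, Ephb4, Stab2, Lyve1 and Prox1, so lymphatic cells were not set apart from them. Vegfc was at 61.6 CPM in arterial-like and 10.3 CPM in venous-like cells, with 49.1 against 11.1 CPM in library 4 and 38.8 against 8.44 CPM in library 5. It was the only member of 7 at least 2-fold higher in arterial-like cells, where 1.79% of 8491 genes were, and none was 2-fold lower (0.33%). Kdr (269.7 and 244 CPM), Flt4 (72.4 and 87.5 CPM) and Tek (148 and 158 CPM) lay closer together. Arterial-like and venous-like cells are few, and the order of Vegfc rests on those 2 libraries.

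**Figure D4:**
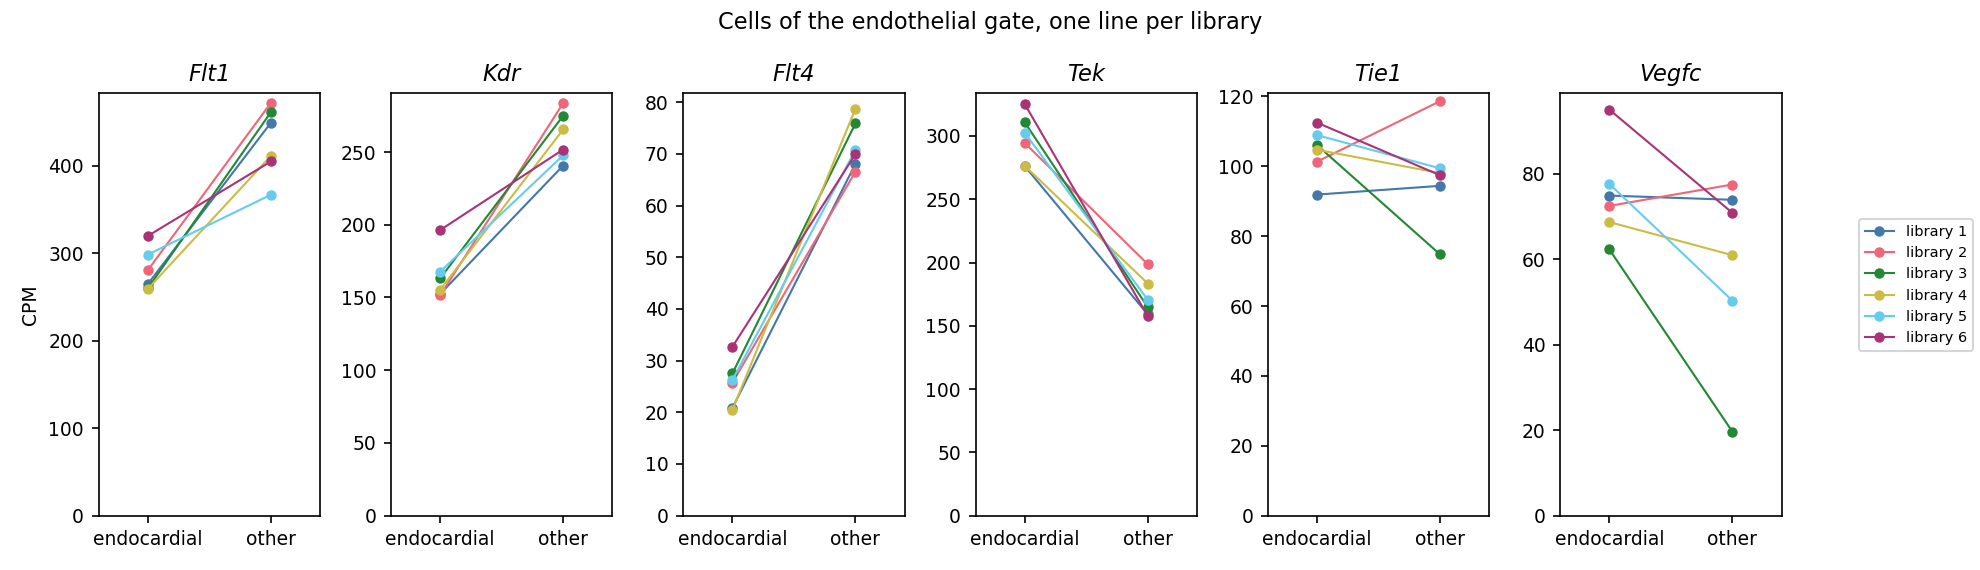
CPM of the 5 receptors and Vegfc in endocardial-like cells and in the other cells of the endothelial gate, with 1 line for each library and axes from 0. All 6 lines of Flt1, Kdr and Flt4 lead upwards from endocardial-like to other cells and all 6 of Tek lead downwards, while the lines of Tie1 cross.

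Within the cardiomyocyte gate, Angpt1 marked atrial-like cells. The 838 atrial-like cells had 486 CPM, with 473, 529.7, 490.4, 473, 439 and 517 CPM in libraries 1 to 6. The 1755 ventricular-like cells had 144 CPM, with 150.0, 164, 143, 118, 122 and 152 CPM. The ratio was 3.39 (95% interval 3.31 to 3.47), and the lowest atrial-like library was above the highest ventricular-like one. Kdr was at 17.7 against 8.64 CPM, a ratio of 2.06 (95% interval 1.85 to 2.29), also higher in 6 of 6 libraries and without overlap (13.9 to 24.5 and 5.95 to 10.9 CPM). Angpt1 and Kdr were the 2 of 5 members with 10 CPM in either group that were at least 2-fold higher, where 3.05% of 8536 genes were, and no member was 2-fold lower (1.93%). Kdr reached 10 CPM only in atrial-like cells, so its place in this count is a description. Vegfb had the opposite order, at 158 against 189.7 CPM, lower in atrial-like cells in 6 of 6 libraries with overlapping ranges. Vegfa was at 18.3 and 23.5 CPM.

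The 162 outflow-like cells (at least 3 of Rspo3, Tdgf1, Bmp4, Isl1 and Sema3c, and few ventricular or atrial markers) differed most in Vegfc. It was at 163 CPM, with 176, 156, 137 and 229.7 CPM in libraries 1, 2, 5 and 6, against 18.8 CPM in ventricular-like cells, with 14.9, 20.6, 19.9 and 18.3 CPM. The ratio was 8.66 (95% interval 7.97 to 9.41). Kdr (34.4 CPM) and Angpt2 (16.7 CPM) were also above ventricular-like cells in 4 of 4 libraries, and Vegfb (116 CPM) and Angpt1 (120.1 CPM) below them in 4 of 4. These cells had a median of 30546 UMIs against 51034 in ventricular-like cells. Against all other retained cells, cardiomyocyte-like cells were at least 2-fold higher in Vegfb and Angpt1 and at least 2-fold lower in Flt1 and Tek, of 7 members with 10 CPM in either group. Flt1 and Tek reached 10 CPM only in the other cells, which include the endothelial-like ones, so their count is a description. Over all 9337 genes 9.63% were higher and 12.8% lower, and the median ratio of cardiomyocyte-like to all other cells was 0.837.

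**Figure D5:**
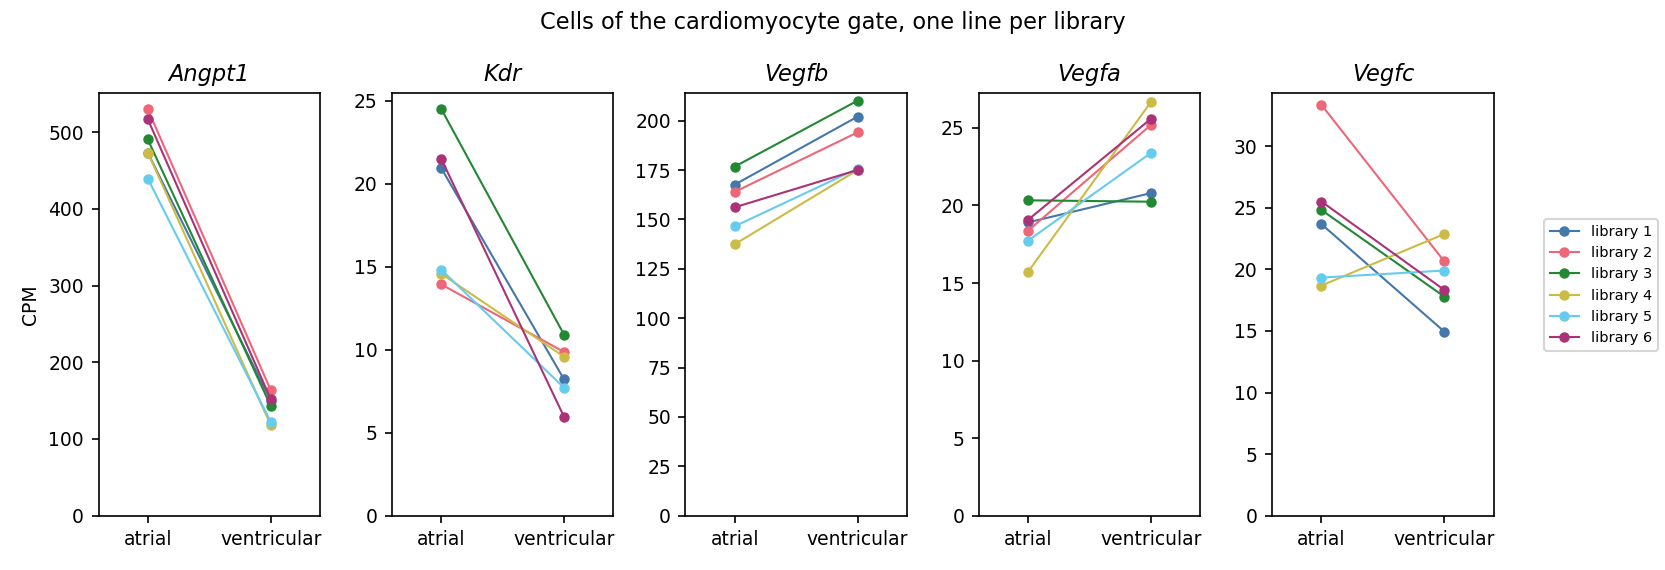
CPM of Angpt1, Kdr, Vegfb, Vegfa and Vegfc in atrial-like and ventricular-like cells of the cardiomyocyte gate, with 1 line for each library and axes from 0. All 6 lines of Angpt1 and Kdr fall from atrial-like to ventricular-like cells, and all 6 of Vegfb lead upwards.

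Endoderm-like cells, the highest class for Vegfa, were divided by the marker genes of their gate, taking cells with at least 2 UMIs of a marker against the rest. The 1175 cells with Pax9, a pharyngeal pouch gene, had 46.1 CPM of Vegfa, with 46.6, 45.9, 42, 40.5, 42.5 and 55.2 CPM in libraries 1 to 6. The other 1153 had 26.3 CPM, with 23.5, 27.8, 25.2, 25.5, 27.2 and 27.9 CPM. All libraries of the first group lay above all of the second. Angpt1 (69 against 32.4 CPM) and Angpt2 (17 against 6.33 CPM) were also higher with Pax9 in 6 of 6 libraries. Vegfa was lower in the 454 cells with Nkx2-1, a gene of lung and thyroid buds, at 21.9 against 40.5 CPM, and in the 1154 cells with Shh, at 27 against 47.2 CPM, each in 6 of 6 libraries. In the cells with Foxa2 Angpt1 was at 22.2 against 69.7 CPM, and Flt4 at 4.87 against 1.31 CPM, again in 6 of 6. Of the 2328 cells, 1214 had just the minimum number of markers. The gate thus ties its markers to one another, and these splits are not independent results.

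Second heart field-like cells, progenitors that add muscle to the poles of the heart, varied in Vegfc, Kdr and Angpt1. The 541 cells with Wnt2, a gene of the posterior second heart field, had 131 CPM of Vegfc against 53.1 CPM in the other 545, higher in 5 of 5 libraries, and 25.2 against 5.23 CPM of Kdr, higher in 4 of 5. The 445 cells with Tbx1, a gene of pharyngeal mesoderm, had 48.1 against 127 CPM of Vegfc, lower in 6 of 6, and 76.2 against 27.4 CPM of Angpt1, higher in 5 of 6. Kdr was at 2.4 CPM in the 306 cells with Foxf2 and at 20.4 CPM in the other 780, lower in 6 of 6. Wnt2, Tbx1 and Foxf2 are markers of this gate, and 851 of 1086 cells had just its minimum number. The gate thus ties these markers to one another, and the splits are not independent results. Cells with Wnt2 made up 22% and 17% of this class in libraries 1 and 2 and between 51.5% and 64.7% in libraries 3 to 6. Libraries 1 and 2 are also those with the lowest Vegfc in this class. The part of the cell make-up in that difference was not tested.

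Other genes of the pathway were taken from 8 lists with 59 genes, of which 23 were highest in endothelial-like cells. The share was 5.89% among all genes that reached 10 CPM in any class. Of the 23, 7 are response genes and 10 are endothelial transcription factors, both listed as endothelial. Some of the 23, such as Apln (4.89 CPM), did not reach that minimum. Beside each list's ratio of endothelial-like to all other cells, the median over all 9417 genes was 0.987. The 7 response genes, which endothelial cells switch on under VEGF or Notch signals, were listed as endothelial genes, and all 7 were highest in endothelial-like cells. The 6 that reached 10 CPM in these or in all other cells together did so only in endothelial-like cells, so their median ratio of 56 is a description of the list. Rasip1, a regulator of vessel lumens, was at 157 CPM, the receptor Notch1 at 87.9 CPM, the nitric oxide synthase Nos3 at 58.6 CPM and Aplnr at 40.7 CPM. Of 17 endothelial transcription factors, also listed for that reason, 10 were highest in endothelial-like cells and 15 at least 2-fold higher there than in all other cells, against 5.89% and 9.83% of all genes. Of the 15, 10 reached 10 CPM only in endothelial-like cells and not in all other cells together, so that count is a description. Among the 4 with the highest class levels, Mef2c was highest in macrophage-like (631 CPM) and Fli1 (455 CPM) and Lmo2 (390.2 CPM) in megakaryocyte-like cells, against 163, 204 and 132 CPM in endothelial-like cells, and Elk3 was highest in endothelial-like cells at 239 CPM.

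The co-receptors were not restricted to the receptor-bearing class. Nrp1, which presents Vegfa to Kdr, was highest in epicardium-like cells at 288 CPM, with 227 CPM in endothelial-like cells, and Nrp2 in branchiomeric muscle-like cells at 176 CPM. Of the 5 further ligands, Apela, a ligand of Aplnr, was highest in epicardium-like cells at 114 CPM and Pgf, a ligand of Flt1, in branchiomeric muscle-like cells at 69.9 CPM. The only one highest in endothelial-like cells was Apln, at 4.89 CPM. Of the 3 genes for Vegfc processing, Ccbe1 reached 64.3 CPM in epicardium-like cells, Svep1 40.8 CPM in second heart field-like cells and the protease gene Adamts3 23.9 CPM in megakaryocyte-like cells. Of 6 phosphatases and adapters 2 were highest in endothelial-like cells, the class that is highest for 5.89% of the genes with 10 CPM in any class. They were Ptprb, at 136 CPM there and 80.8 CPM in cushion mesenchyme-like cells, the same first and second class as for Tek, and Sh2d2a, at 0.383 CPM, which is below that minimum.

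Genes of oxygen sensing were spread over classes, with 3 of 9 highest in endothelial-like cells, against 5.89% of all genes. These were Arnt at 33.2 CPM, barely above epicardium-like cells at 32.6 CPM, Epas1 (HIF2 alpha) at 28.7 CPM and Hif3a at 17.8 CPM, and the last 2, outside the 4 highest of the list, are named because the count is small. Hif1a, the alpha subunit that activates Vegfa under low oxygen, was highest in cardiomyocyte-like cells at 191 CPM. None of the 10 target genes of hypoxia-inducible factors was highest in endothelial-like cells and 6 were highest in cardiomyocyte-like cells, against 5.89% and 7.81% of all genes. With 10 genes, a count of 0 in endothelial-like cells is near that background. In cardiomyocyte-like cells Ldha was at 2481 CPM, Pgk1 at 1149 CPM, the glucose transporter Slc2a1 at 539 CPM and Bnip3 at 147 CPM. Vegfa, itself such a target, was highest in endoderm-like cells, at 37.5 CPM, with 22.2 CPM in cardiomyocyte-like cells. The part of hypoxia-inducible factors in these levels was not tested.

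Likeness of pattern was measured as Pearson's r of log2(CPM + 1) over 68 sums of 1 class in 1 library with at least 50 cells, among 12069 genes. The sums share libraries, depth and gates, so r is a description. Nearest to Tie1 were Gimap1 (0.993), Cd93 (0.981) and She (0.974), to Tek Vamp5 (0.954), Adgrg6 (0.931) and Ptprb (0.928), to Flt4 Tlr4 (0.941), Sox17 (0.938) and Gimap1 (0.933), to Kdr Klhl6 (0.904), Entpd1 (0.852) and Nos3 (0.849) and to Flt1 Rbm43 (0.869), Tek (0.869) and Vav3 (0.861). Of these, Sox17 and Adgrg6 are markers of the endothelial subsets used above. Nearest to Angpt1 were Cacnb2 (0.902), Slc4a3 (0.891) and Smarcd3 (0.884), to Vegfb Gapdh (0.941), Pmpcb (0.936) and Nfil3 (0.929), to Vegfa Chpt1 (0.898), Capn6 (0.895) and Cxadr (0.886), to Vegfc Eci2 (0.919), Fkbp7 (0.886) and St5 (0.877) and to Angpt2 Shisa2 (0.817), Rab28 (0.789) and Gm26691 (0.780). Among the members, r was highest between Flt4 and Tie1 (0.915) and between Flt1 and Tek (0.869), and among ligands between Vegfb and Angpt1 (0.790). Between ligands and their receptors, r was -0.162 for Vegfa with Kdr, -0.020 for Vegfa with Flt1, 0.028 for Vegfb with Flt1, -0.124 for Angpt1 with Tek and -0.153 for Angpt2 with Tek. For Vegfc it was 0.405 with Flt4 and 0.689 with Kdr, to which it can also bind, beside 0.410 with Flt1, 0.403 with Tie1 and 0.396 with Tek, which are not its receptors.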

How the data were processed

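The authors deposited 1 matrix of raw UMI counts over all samples, whole numbers per gene and barcode. The submitters' processing notes name CASAVA 1.8, Cell Ranger 5.0.0, Seurat 4 and the build mm10, without their roles. The sources used here do not give the settings of cell calling. The descriptions of the samples name a chromatin assay, whereas the titles, library source, 3′ kit and values are of RNA, and the values were used as RNA counts. From these counts cells were gated with Python 3.11.15, NumPy 2.4.6, SciPy 1.17.1 and pandas 2.3.3. The members, marker lists and pathway lists were chosen with earlier results of these data known, and the number of markers each gate needs (2 to 6) was set after marker counts had been seen. Cushion and smooth muscle gates also allowed at most 2 endothelial, 2 epicardial and 3 cardiomyocyte markers. No doublet caller was run. Cells in 2 or more gates (median 57449 UMIs) were left out. Retained libraries summed to 195763232 to 245913073 UMIs. Classes under 50 cells (hepatocyte with 7, neural tube with 11) were not compared. Intervals are 95% and exact, Clopper-Pearson for shares. In simulated cells with 200 genes changed, the ratio interval held the true ratio for 94.5%. All simulated cells of a group shared 1 profile and differed only in depth and counting error. The share thus says nothing of variation between cells or libraries. The rule for named genes took all 10 members, at most 4 genes by level from each pathway list, and the 3 nearest genes by r. Gene positions are from GENCODE M21, in which all 10 members matched by gene ID, and RefSeq windows matched 8 of the 10.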

Additional observations from a re-analysis of the deposited data

How the results depend on the processing

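Each count and each member's ratio of its highest to its next class was recomputed with looser cell filters, 1 more marker, the deepest 5% of barcodes or repeated barcode sequences left out, cells thinned to 5000 UMIs, an unweighted mean of libraries, and each library left out in turn. For Angpt1, Kdr and Tie1, whose next class is megakaryocyte-like, the ratio could be recomputed only with looser cell filters and with thinned cells. In all of these runs 5 members were highest in endothelial-like cells, 10 reached 10 CPM and 1 was 2-fold apart within the endothelial gate. The pathway genes highest in endothelial-like cells numbered 22 to 29 against 23. The highest class was above the next in every library with 20 cells of both for 5 members. That number was 7 with 1 more marker, 4 with thinned cells, 8 without the deepest barcodes, 8 without repeated barcode sequences, 8 with the unweighted mean, 8 with any 1 library left out, and 8 without macrophage-like and megakaryocyte-like cells, an alternative chosen after seeing the data. In the runs with 8 the megakaryocyte-like cells were no longer the next class of Angpt1, Kdr and Tie1, because they were left out or fell below a minimum number of cells. The ratio of cushion mesenchyme-like to smooth muscle-like cells for Vegfc turned to 0.828 after thinning, 0.987 with the unweighted mean, 0.985 without library 4 and 0.923 without library 6, from 1.02, with a range of 0.923 to 1.09 over runs with 1 library left out. Of the 92 recomputed ratios and levels, 77 stayed within the counting interval, these 4 turned, and 11 moved outside it in the same direction, among them Flt4 (endothelial-like to cushion mesenchyme-like) at 5.997 after thinning against 9.81. The 92 include the Tek and Flt1 levels of epicardium-like cells without a UMI of an endothelial marker, Kdr or Tie1, a run not planned in advance. There Tek stayed and Flt1 moved. No paired analysis was possible because the libraries are not tied to samples, so that replicate numbers of vehicle and streptozotocin samples could not be matched. Classes were compared within each library. Depth limits what a missing UMI shows, and cells without a gate (45.8%) were not resolved.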
